A study of Mus musculus with 11 samples.

Results

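In mouse stomach glands, 4259 regions carried an H3K27ac peak in both libraries with active Notch (NICD), in neither wild-type library and in neither library of NICD glands with 2 floxed alleles of Arid1a. They are called missing regions here. They were found by merging the peaks of the 8 H3K27ac lists on chromosomes 1 to 19 and X into 45804 regions and reading an overlap of at least 1 bp as a call. The missing regions were 9.3% of all merged regions, 20.2% of the 21075 regions called in both NICD libraries and 71.8% of the 5928 NICD-gained regions, those with a call in each NICD library and no wild-type call. A further 613 NICD-gained regions (10.3%) were called in both 2-allele libraries and are called kept regions, and 1056 were called in 1 of the 2-allele libraries. The 11167 regions called in both NICD and both wild-type libraries are called common regions.

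The missing regions were chosen by their calls in the wild-type, NICD and 2-allele H3K27ac lists, so those calls are a description. Calls in the 2 H3K27ac libraries with 1 floxed allele and in the 3 H3K4me3 libraries were not read for the choice. The peaks of the 2 libraries with 1 floxed allele did take part in the merging. Such a peak could widen a region or join it to another peak, and the size of this effect was not tested. Missing means that no peak was listed, and the mark itself was not quantified in the 2-allele libraries, whose lists hold positions alone.

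The study compared 4 genotypes of stomach gland, and its title gives Arid1a dosage in tumours of the stomach as the subject. The groups were wild type, Atp4bCre with Rosa26NICD (NICD), the same alleles with Arid1aflox/+ (1-allele) and the same alleles with Arid1aflox/flox (2-allele). All groups other than wild type therefore carried both Atp4bCre and Rosa26NICD, and the labels give no age or strain. H3K27ac was read in 2 libraries per genotype. H3K4me3 was read in 1 library for each of 3 genotypes, namely wild type, NICD and NICD with floxed Arid1a. The floxed H3K4me3 library is called a heterozygote in its title and flox/flox in its genotype, so its allele number is unknown. Atp4b is a gene of acid-secreting parietal cells, so recombination depends on where its promoter has been active, and the recombined share of cells is not known. Fixed epithelial pellets were pooled to reach enough material, so the number of animals behind a library is unknown and differences between replicates may be technical.

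H3K27ac is an acetyl mark on histone H3 found at active promoters and enhancers, and H3K4me3 is a methyl mark centred on active or poised promoters. Notch receptors release their intracellular domain, NICD, which joins the DNA-binding protein RBPJ and Mastermind co-activators to switch on target genes. Arid1a encodes a DNA-binding subunit of the BAF (SWI/SNF) remodelling complex, which opens chromatin and is known for its work at enhancers.

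The promoters that touched a missing region were read for their sequence, whether or not the whole window lay inside the region. The RefSeq promoter table (GRCm38.p6) holds windows from 250 bases before to 50 bases after a gene start, and 378 of 21045 windows, of 348 genes, overlapped a missing region. The following 5 were chosen because their gene had no H3K27ac promoter peak in any wild-type or 2-allele library, and together they span CpG-rich and CpG-poor windows. The letters of 13 motifs were searched on both strands, and capitals mark the matches to all but the KLF/SP motif. The Notch partner RBPJ was searched as TGGGAA, and the stress and growth factor AP-1 as TGANTCA. The Hippo pathway factor TEAD was searched as GGAATG, and the gut factor family GATA as GATAAG. Forkhead factors were searched as TGTTTAC, and the liver and gut factor HNF4 as CAAAGTCCA. The epithelial factor GRHL was searched as AACNNGTT, and the ETS family as GGAAGT. RUNX factors were searched as TGTGGT, and the cyclic AMP factor CREB as TGACGTCA. The cell cycle factor E2F was searched as TTTGGCGC, and HNF1 by its palindromic site.
Ccnb1 promoter, chr13:100786437-100786736, minus strand: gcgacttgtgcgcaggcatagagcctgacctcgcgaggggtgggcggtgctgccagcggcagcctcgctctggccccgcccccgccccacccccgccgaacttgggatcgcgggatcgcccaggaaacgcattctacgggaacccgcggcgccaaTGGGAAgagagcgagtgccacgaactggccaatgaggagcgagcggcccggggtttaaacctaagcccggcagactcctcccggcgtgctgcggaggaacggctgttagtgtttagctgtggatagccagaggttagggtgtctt
Efna4 promoter, chr3:89337979-89338278, minus strand: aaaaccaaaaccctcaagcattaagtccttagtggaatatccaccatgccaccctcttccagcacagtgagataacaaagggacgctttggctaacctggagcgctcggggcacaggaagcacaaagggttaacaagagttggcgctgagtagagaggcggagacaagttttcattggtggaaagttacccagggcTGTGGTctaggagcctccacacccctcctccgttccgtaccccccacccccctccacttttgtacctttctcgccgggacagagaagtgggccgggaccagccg
Gstp1 promoter, chr19:4037863-4038162, minus strand: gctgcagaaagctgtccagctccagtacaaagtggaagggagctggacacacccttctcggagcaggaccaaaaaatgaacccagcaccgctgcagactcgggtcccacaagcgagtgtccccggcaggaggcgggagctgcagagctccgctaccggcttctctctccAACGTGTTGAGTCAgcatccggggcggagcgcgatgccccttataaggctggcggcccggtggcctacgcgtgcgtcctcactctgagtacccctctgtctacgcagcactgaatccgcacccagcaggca
Bhlha15 promoter, chr5:144190036-144190335, plus strand: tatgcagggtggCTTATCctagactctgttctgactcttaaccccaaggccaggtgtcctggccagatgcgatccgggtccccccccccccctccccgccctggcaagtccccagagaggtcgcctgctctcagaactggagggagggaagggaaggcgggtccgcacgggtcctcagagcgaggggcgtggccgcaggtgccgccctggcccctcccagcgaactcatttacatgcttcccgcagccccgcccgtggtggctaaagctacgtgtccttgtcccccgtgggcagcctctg
Ifit3 promoter, chr19:34583279-34583578, plus strand: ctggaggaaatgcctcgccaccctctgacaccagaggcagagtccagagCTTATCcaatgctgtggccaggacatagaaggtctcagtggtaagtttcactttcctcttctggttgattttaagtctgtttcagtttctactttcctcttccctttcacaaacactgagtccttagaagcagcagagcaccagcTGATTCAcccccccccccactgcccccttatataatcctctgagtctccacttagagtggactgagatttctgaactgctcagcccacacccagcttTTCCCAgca

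The Ccnb1 window, of the gene for the mitotic cyclin B1, held 29 CpGs and 1 match, TGGGAA from base 156. The Efna4 window, of the gene for an ephrin ligand, held 11 CpGs and a TGTGGT from base 197. The Gstp1 window, of the gene for a glutathione transferase, held 20 CpGs and a GRHL match from base 170 whose last base is shared with an AP-1 match from base 177, so they print as 1 run of capitals. The Bhlha15 window held 17 CpGs and a reverse GATA match from base 13. The Ifit3 window, of an interferon-induced gene, held 1 CpG, with a reverse GATA match from base 50, an AP-1 match from base 195 and a reverse RBPJ match from base 292. Bases are counted from the 5′ end of each window. The part of the window that lay inside the missing region was 62 bases for Ccnb1, 205 for Efna4, 73 for Gstp1, 77 for Bhlha15 and 289 for Ifit3. The Efna4 match and the GATA and AP-1 matches of Ifit3 lay in that part. The matches of Ccnb1, Gstp1 and Bhlha15 and the RBPJ match of Ifit3 lay outside the missing region.

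Over the 378 windows at missing regions the median was 18 CpGs, with 10 and 25 at the quartiles. The median was 21 in the 316 windows at kept regions, 24 in the 7153 at common regions and 13 over all 21045 windows. Windows with fewer than 10 CpGs made up 24.6% at missing regions, 12.03% at kept regions, 7.62% at common regions and 42.7% of all windows. Missing promoters thus lay between the common promoters and the whole table in CpG content. AP-1 letters were in 8.73% of windows at missing regions, 4.75% at kept, 3.94% at common and 7.04% of all windows. RBPJ letters were in 25.9% of windows at both missing and kept regions, 21.2% at common regions and 24.2% of all. ETS letters were in 30.4%, 35.4%, 30.5% and 24.97% in the same order, and GATA letters in 7.94%, 6.33%, 3.98% and 6.95%. RBPJ letters can share bases with ETS or TEAD letters. KLF/SP letters (GGGNGG) were in 83.3% of windows at missing regions, 87.7% at kept, 90.1% at common and 75% of all windows. Matches were counted over the whole window, also where it lay outside the region. A match is a string of letters and not a bound site.

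Most missing regions lay far from gene starts. Of the 4259, 3522 (82.7%) were distal, with no protein-coding gene start within 1 kb, and 737 (17.3%) were at a promoter. The distal share was 38.2% of kept regions, 26.0% of common regions, 45.2% of the 21075 regions with both NICD calls and 66.0% of all merged regions. Distal missing regions were spread over gene bodies (40.5% of all missing regions) and the space between genes (42.2%). The median distance from a missing region to the nearest gene start was 18.05 kb, with quartiles of 4.84 and 50.6 kb, and that of kept regions was 0.156 kb. Regions are not replicates, so no test was made of these shares.

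**Figure D1:**
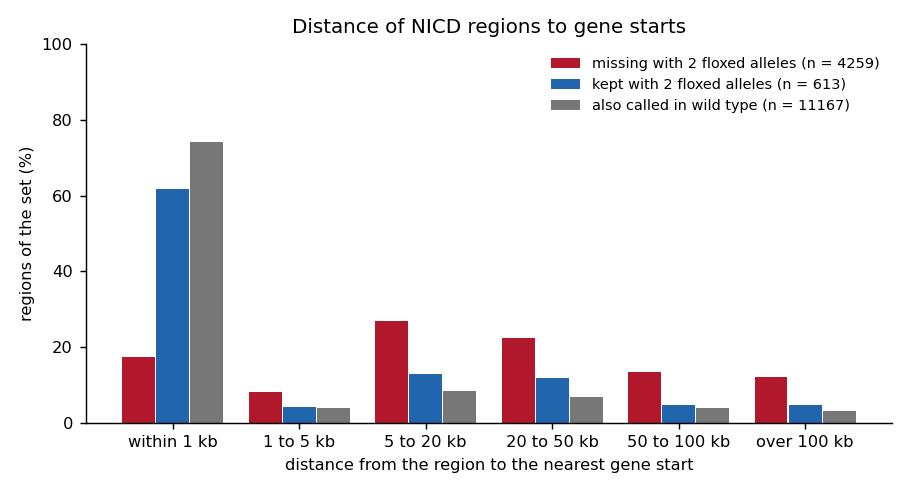
Bars give the percent of each set of regions (y axis) by distance to the nearest protein-coding gene start (x axis) for missing, kept and common regions. Missing regions fell within 1 kb of a start in 17.3% of cases, kept regions in 61.8% and common regions in 74.0%, whereas 26.98% of missing regions lay 5 to 20 kb away.

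Missing regions were found on every chromosome examined. They made up 18.2% of the NICD regions of chromosome 11 at the low end and 23.3% of those of chromosome 18 at the high end. Joining missing regions with gaps of up to 12.5 kb left 3486 alone, 320 pairs, 39 groups of 3 and 4 groups of 4. Most missing regions were therefore isolated from each other at this distance.

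At missing regions the NICD peaks were narrow and of middling to low rank. The median region was 427 bp wide, against 601 bp for kept and 806 bp for common regions. The authors' fold enrichment, the height of a peak over the background of its own library, had a median of 4.65 in NICD replicate 1 and 4.58 in replicate 2. In kept regions the medians were 5.83 and 5.22, and in common regions 7.94 and 6.82. The percentile of the peak in its own list, where 100 is the highest −log10 q, had medians of 45.0 and 24.5 for missing, 69.2 and 47.9 for kept, and 85.8 and 75.9 for common regions. In both libraries the order was the same, missing below kept below common. Above the median rank of both NICD lists lay 337 missing regions.

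**Figure D2:**
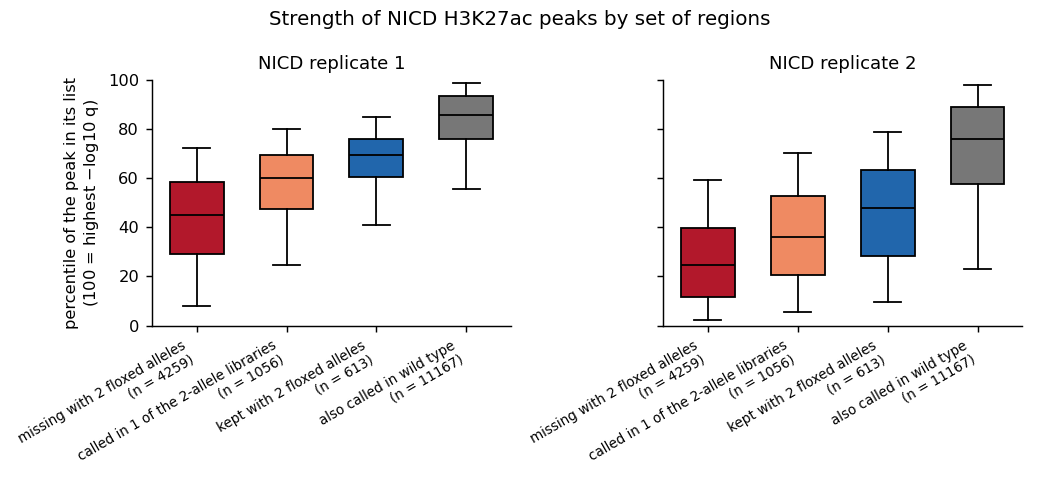
Boxes show the percentile of NICD H3K27ac peaks within their list (y axis) for 4 sets of regions in each NICD replicate, with the median as a line, quartiles as box edges, and whiskers at the 5th and 95th percentiles of the set. Medians rose from 45.0 in missing to 85.8 in common regions in replicate 1 and from 24.5 to 75.9 in replicate 2.

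Strength and position both went with absence from the 2-allele lists. NICD-gained regions were split into 5 equal classes of mean percentile over the NICD lists. Among distal regions the missing share was 95.05% in the weakest class and then 89.1%, 81.4%, 73.9% and 52.3% in the strongest. Among promoter regions it was 81.8%, 63.4%, 57.6%, 48.4% and 22.2%. In each class, distal regions were missing more often than promoter regions. Even in the strongest class 18.1% of 708 distal regions were kept, against 49.0% of 478 promoter regions.

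Common regions in the same ranges of strength were less often absent, but strength was not matched within a range. Of all 2902 distal common regions 28.9% were called in neither 2-allele library, as were 3.57% of 8265 promoter common regions. Within the range of the strongest class, 19.8% of 1838 distal common regions were absent, and within that of the weakest, 84.9% of 53. Promoter common regions ran from 80.8% of 26 in the weakest range to 2.65% of 5403 in the strongest. In the weakest range this was close to the 81.8% of NICD-gained promoter regions. In each of the 5 ranges the absent share was higher in NICD-gained than in common regions, by position class, and these values are a description because the 2-allele lists chose the missing regions.

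**Figure D3:**
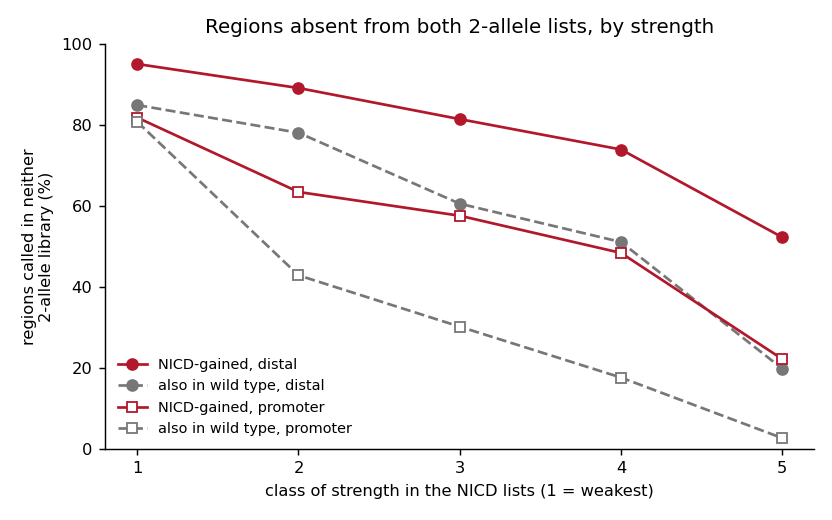
Points give the percent of regions called in neither 2-allele library (y axis) in 5 classes of strength in the NICD lists (x axis, 1 the weakest), for NICD-gained and common regions, distal (filled circles) and promoter (open squares). NICD-gained distal regions were the highest series in each class, from 95.05% to 52.3%.

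The number of regions chosen moved with the lists and libraries used. The lists held 41411 and 25443 peaks in NICD, 20596 and 18365 in wild type and 15362 and 14373 in 2-allele glands, and 5169 and 7605 in 1-allele glands. Each list that chose the regions was then reduced to 14373 peaks, by −log10 q or, for the 2-allele lists, by order in the file. Of the regions chosen anew, 375 met the definition of missing and 564 that of kept, against 4259 and 613 with the whole lists. Kept regions thus outnumbered missing ones with lists of equal length. Both NICD calls remained at 220 of the 4259 missing regions. Without NICD replicate 2 the definition gave 19520 regions. Depth after removal of duplicate reads was 13912206 and 7955591 tags in NICD, 18257001 and 17017632 in wild type, and 16619226 and 9761652 in 1-allele glands. It is unknown for 2-allele glands. The redundant rate was highest in NICD replicate 2, at 0.52, and ran from 0.1 to 0.31 in the other H3K27ac libraries with a header. The widest 2-allele peaks were 1774 and 1759 bp, against 3789 to 3875 bp elsewhere in H3K27ac, and how the 2-allele lists were made is not known, so genotype and list-making cannot be told apart. In whole glands, fewer cells of a type and less mark per cell cannot be told apart either.

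The edge of the definition was narrow in places. A 2-allele peak lay within 100 bp of 77 missing regions without touching them. Of the 1669 NICD-gained regions that had a 2-allele peak, 18 had no more than 100 bp of a NICD peak under it. The lowest −log10 q of a missing region was 1.89 in NICD replicate 1 and 1.55 in replicate 2. A 2-allele peak lay within 1 kb of 711 missing regions (16.7%), and none lay within 10 kb of 2776 (65.2%). Among promoter missing regions 43.1% had a 2-allele peak within 1 kb, and among distal ones 11.2%. Many promoter members were thus flanks of promoters still called elsewhere, and most distal members stood clear of any 2-allele peak. The wild-type side of the definition was also narrow in places. A wild-type peak lay within 1 kb of 882 missing regions (20.7%), and none lay within 10 kb of 2453 (57.6%). Such a peak within 1 kb was found for 42.1% of promoter and 16.2% of distal missing regions.

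The 1-allele libraries, whose calls did not choose the regions, listed few of them. Peaks were listed at 27 missing regions in replicate 1 and 45 in replicate 2, or 0.634% and 1.06% (mean 0.845% ± 0.299, SD, n = 2). All merged regions were called in 10.5% and 15.4% of cases in these libraries, and all NICD regions in 21.4% and 31.9%. Kept regions were called in 2.45% and 7.504%, and common regions in 38.3% and 55.8%. The missing regions stood below kept regions in both libraries, by −1.81 and −6.45 percentage points. The mean difference was −4.13 ± 3.28 points (SD, n = 2 libraries, two-sided exact sign-flip permutation p = 0.5, the smallest this design allows). The kept regions were also stronger in NICD, as given above, and the part of strength in this difference was not tested.

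Of the missing regions, 71 were listed in 1-allele glands in either replicate, 4188 in neither and 1 in both. The 1 listed in both lay at chr7:35144075-35145355 (GRCm38), between genes, 22.1 kb from Cebpa, which encodes a C/EBP transcription factor of differentiation. It was singled out after its values were seen. Its fold enrichment was 5.86 in NICD replicate 1 and 4.29 in replicate 2, and the nearest 2-allele peak was 15.1 kb away. Distal missing regions were called in 0.596% and 0.965% and promoter ones in 0.814% and 1.49% of cases in the 1-allele replicates. Over all merged regions the shares were 4.22% and 4.90% at distal and 22.8% and 35.8% at promoter positions, so missing regions stood below all regions of the same position, by more percentage points at promoters.

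H3K4me3 gave a second mark that did not choose the regions. In the NICD library 2178 missing regions (51.1%) overlapped an H3K4me3 peak, in wild type 302 (7.09%) and in the floxed library 30 (0.704%). The same libraries had peaks at 56.2%, 28.6% and 10.4% of all merged regions and at 80.3%, 53.2% and 20.9% of all NICD regions. Missing regions stood below both backgrounds in each library, and their mix of distal and promoter positions differed from both. The lists differed in length, with 39423 peaks in NICD, 17563 in wild type and 5176 in the floxed library, and each genotype had 1 library, so no test was possible.

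Position split the H3K4me3 calls. Of distal missing regions 43.7% had a peak in NICD, 2.16% in wild type and 0.170% in the floxed library. Over all distal merged regions the shares were 37.2%, 7.64% and 2.18%. Of promoter missing regions 86.7% had a peak in NICD, 30.7% in wild type and 3.26% in the floxed library, and over all promoter merged regions the shares were 93.3%, 69.4% and 26.3%. In NICD, missing regions thus stood above all merged regions of the same position when distal and below them at promoters. In wild type and the floxed library they stood below at both. All merged regions include regions with no NICD H3K27ac call. Over the regions called in both NICD libraries, the NICD H3K4me3 shares were 59.3% at distal and 97.5% at promoter positions. Missing regions stood below these at both positions. Kept regions had 69.7% and 97.6% in NICD at distal and promoter positions. H3K4me3 was listed in NICD alone at 1876 missing regions, of which 78.0% were distal, and in no library at 2076, of which 95.3% were distal. These patterns were counted at missing regions only, with no share over all regions beside them, and the NICD H3K4me3 list was the longest. When the NICD H3K4me3 list was reduced to the 17563 peaks of the wild-type list, a change chosen after the data were seen, the NICD shares were 19.4% of all, 10.1% of distal and 63.9% of promoter missing regions. These values remained above the wild-type shares of 7.09%, 2.16% and 30.7%. The reduced list was read at missing regions only. The extract protocol lists one antibody, against H3K27ac, also for the libraries labelled H3K4me3.

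**Figure D4:**
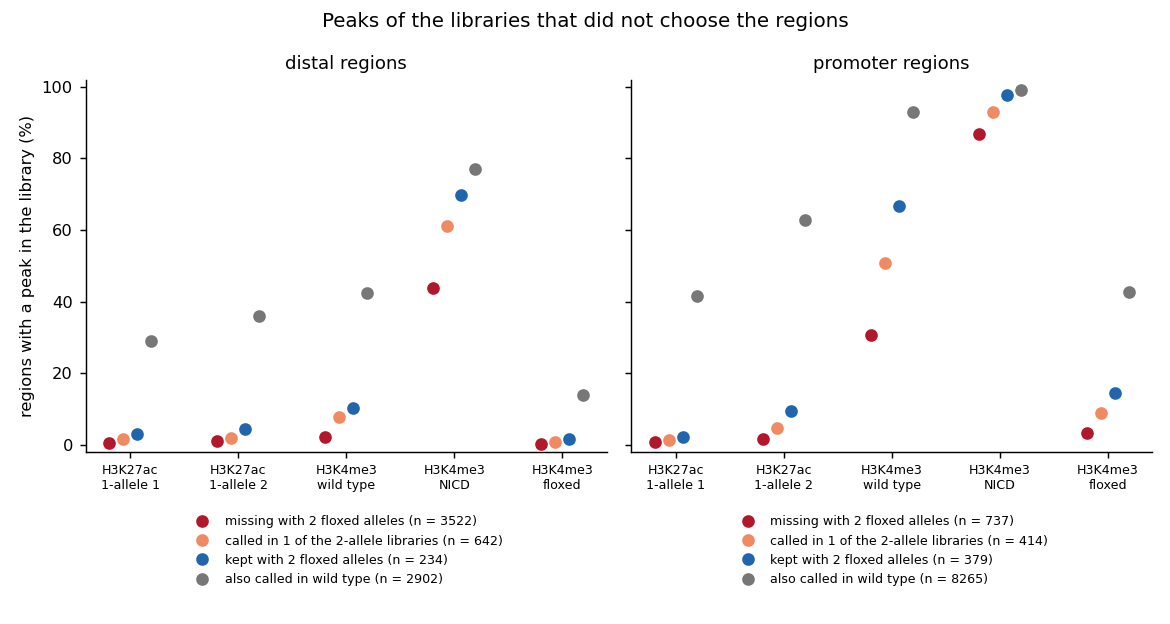
Points give the percent of regions with a peak (y axis) in the 5 libraries whose calls did not choose the regions (x axis). The sets are missing, partly called, kept and common regions, distal on the left and promoter on the right, 1 library per point. Missing regions were the lowest set in each library, at 43.7% (distal) and 86.7% (promoter) in NICD H3K4me3.

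At promoters, 779 protein-coding genes, 3.6% of 21631, had a missing region within 1 kb of a start. For 347 of them (44.5%) no H3K27ac peak of a wild-type or 2-allele library lay at any start of the gene. For 250 (32.1%) the promoter was called in all 6 of the NICD, wild-type and 2-allele libraries, so that a missing region lay beside a promoter peak present in each. Over all 21631 genes, 48.7% had no wild-type or 2-allele promoter peak and 36.1% were called in all 6. All genes are not a matched background for these shares. A promoter peak in both NICD libraries was listed for 49.2% of all genes and for 99.2% of the 779. The first kind had H3K4me3 at 95.4% of promoters in NICD, 45.0% in wild type and 6.92% in the floxed library. Over all 21631 genes the H3K4me3 shares were 66.0% in NICD and 50.5% in wild type, and 4536 genes were called in the floxed library. Of the first kind, 2 and 3 had an H3K27ac promoter peak in the 1-allele libraries, against 3773 and 5937 of all genes. Among 40 promoter genes that the naming rule gave, 16 were of this kind and 24 had at least 1 wild-type or 2-allele peak at a start.

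**Figure D5:**
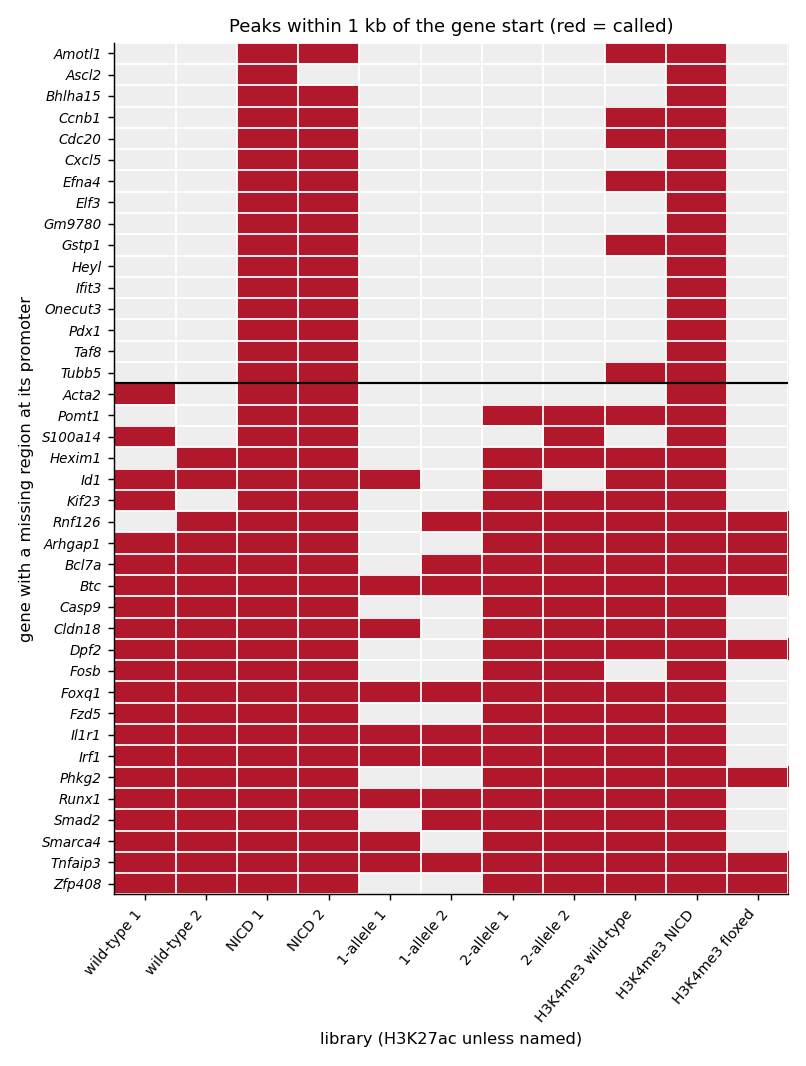
Rows are 40 named genes with a missing region at the promoter and columns the 11 libraries, with red where a peak lay within 1 kb of a gene start. The 16 genes above the line had no H3K27ac promoter peak in a wild-type or 2-allele library.

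The strongest promoter members belonged to Efna4, Rnf126, Pomt1, Phkg2, S100a14, Gm9780, Hexim1, Taf8, Kif23, Gstp1 and the shared promoter of Arhgap1 and Zfp408. The Efna4 region (chr3:89337436-89338183) had a fold enrichment of 5.98 in NICD replicate 1 and 7.29 in replicate 2 and lay 53.8 kb from the nearest 2-allele peak. The Gstp1 region (chr19:4037364-4037935) had 4.83 and 5.39 and lay 7.74 kb away. Both genes had a promoter H3K4me3 peak in wild type and NICD and none in the floxed library. The Taf8 region, of a TFIID subunit gene, had 6.95 and 4.98 and lay 2.56 kb from a 2-allele peak. The region of Gm9780, a predicted gene, had 9.07 and 7.45 and lay 23.7 kb away.

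Others of this set were flanks. The regions of Rnf126, a ubiquitin ligase gene, Pomt1, a protein mannosyltransferase gene, Phkg2, a phosphorylase kinase subunit gene, and Kif23, a mitotic kinesin gene, lay 0.206, 0.175, 0.371 and 0.186 kb from a 2-allele peak. Hexim1, an inhibitor of the elongation kinase P-TEFb, had 0.224 kb, and S100a14, an epithelial calcium-binding protein gene, had 0.087 kb. Each of these 6 promoters was called in at least 1 of the 2-allele libraries.

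Among Notch pathway genes, 1 of 40 had a missing region at its promoter and 11 were the nearest gene, within 50 kb, to at least 1 (27.5%). Over all protein-coding genes 3.6% had one at the promoter, 13.3% were nearest to at least 1 missing region and 0.74% to at least 3. The promoter gene was Heyl, a hairy-related repressor and Notch target. Its promoter region (chr4:123233233-123233999) had fold enrichments of 4.40 and 5.47, and a second missing region in the gene at chr4:123239585-123240007 had 4.804 and 4.27. Both carried H3K4me3 in NICD, and they lay 31.6 and 37.9 kb from a 2-allele peak. Heyl has no entry in the promoter table, so both its ends were taken as starts.

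Maml3, a Mastermind co-activator gene, held 4 missing regions inside the gene, with fold enrichments of 2.81 to 6.26 in replicate 1 and 3.01 to 5.04 in replicate 2, and each had H3K4me3 in NICD. Other Notch genes near a missing region included Notch2, Notch3, Jag1, Maml1, Maml2, Dtx4 and Hes1. Receptors, a ligand and co-activators were thus among the 11 nearest genes, of 40 on the list.

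The genes named by the design had little. Hes1, a Notch target repressor, was nearest to 2 missing regions, 11.4 and 30.7 kb away, and none lay at its promoter. The closer had fold enrichments of 2.88 and 3.81 and the farther 5.02 and 5.05. The Hes1 promoter was called in both wild-type libraries, NICD replicate 1 and no 1-allele or 2-allele library. Arid1a, Notch1 and Atp4b were nearest to none. Arid1a and Notch1 promoters were called in both 2-allele libraries, and a promoter peak checks nothing about the floxed exons.

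Gastric and endoderm transcription factor genes had the highest share of the lists examined near a missing region, 19 of 38 (50.0%), and 6 had one at the promoter. Of those 6, Pdx1, Elf3, Bhlha15 and Onecut3 had no wild-type or 2-allele promoter peak. Pdx1, a factor of the distal stomach and pancreas, had a promoter region (chr5:147270890-147271461) with fold enrichments of 2.89 and 4.23. Elf3, an epithelial ETS factor, had 2.39 and 2.59 (chr1:135258827-135259173). Bhlha15 (Mist1), a factor of mature chief cells and other secretory cells, had 5.21 and 6.64 (chr5:144190259-144190835) and lay 31.7 kb from a 2-allele peak. Onecut3 had 4.20 and 4.55 (chr10:80494953-80495761). Each of these 4 promoters was also uncalled in both 1-allele libraries and in wild-type and floxed H3K4me3, and called in NICD H3K4me3.

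Foxq1, a forkhead factor needed for mucin in surface pit cells, was nearest to 6 missing regions, 5 of them distal. They lay between chr13:31515653-31516256 upstream and chr13:31568009-31568286 on the other side of the gene, and 4 of the 6 formed a cluster of 20.3 kb. Fold enrichments ran from 2.53 to 6.80 in replicate 1 and from 3.62 to 6.62 in replicate 2, and the strongest by rank, 41.9 kb from the gene, had 4.93 and 6.62. The promoter of Foxq1 was called in all 8 H3K27ac libraries. At this gene the promoter peak was thus listed in each genotype while the distal missing regions were listed in NICD. Runx1 also had its promoter called in all 8 libraries, with a missing region 0.351 kb from a 2-allele peak. Foxp1, a forkhead repressor gene, held 5 distal missing regions, at 0.241 to 122.1 kb from the nearest 2-allele peak, beside a promoter called in all 8.

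Wnt and stem cell genes had 9 of 29 near a missing region and 2 with one at the promoter. Ascl2, a stem cell factor, had a region 0.778 kb from its start (chr7:142967713-142968486) with fold enrichments of 7.60 and 5.05, 84.4 kb from a 2-allele peak. The peak of NICD replicate 2 there lay beyond 1 kb of the start, so that library has no Ascl2 promoter call. Tcf7l2, the main TCF of the gut, and Lrp5, a Wnt co-receptor gene, were each nearest to 4 distal missing regions, with fold enrichments of 2.45 to 4.88 in replicate 1 and 3.06 to 4.02 in replicate 2. Both promoters were called in both 2-allele libraries. Fzd5, a Frizzled receptor gene, had a promoter-flanking region 0.963 kb from a 2-allele peak.

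Of 37 cell cycle genes, 2 had a missing region at the promoter and 3 were near one (8.11%). Ccnb1 (chr13:100786089-100786498) had fold enrichments of 5.30 and 6.07 and lay 41.4 kb from the nearest 2-allele peak. Cdc20, an activator of the anaphase-promoting complex, had 2 promoter regions, and the stronger (chr4:118437457-118438041) had 4.60 and 5.77 and lay 7.97 kb away. Both promoters carried H3K4me3 in wild type and NICD and not in the floxed library. Over the whole list, 17 and 16 of 37 cell cycle promoters were called in wild type, 32 and 26 in NICD, 7 and 7 in 1-allele and 27 and 22 in 2-allele glands. Over all 21631 genes the counts were 9793 and 9329, 11883 and 10704, 3773 and 5937, and 9712 and 9350 in the same order.

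Hippo and TGF-beta genes had 16 of 34 near a missing region (47.1%) and 4 with one at the promoter. Amotl1, an angiomotin family regulator of YAP, had fold enrichments of 6.52 and 4.68 (chr9:14614266-14615101) and lay 103.0 kb from a 2-allele peak. Tead4, a DNA-binding partner of YAP, and Smad6, an inhibitory SMAD gene, were each nearest to 3 distal missing regions. By rank, their strongest had fold enrichments of 5.63 and 4.64 for Tead4 and 5.65 and 5.65 for Smad6. Id1 and Smad2 had regions 0.688 and 0.061 kb from a 2-allele peak.

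Inflammatory genes had 11 of 29 near a missing region (37.9%) and 5 with one at the promoter. Cxcl5, a neutrophil chemokine gene, had fold enrichments of 4.37 and 4.81 and lay 6.62 kb from a 2-allele peak. Ifit3 (chr19:34583040-34583567) had 6.09 and 3.88 and lay 55.4 kb away, with a percentile of 0.945 in replicate 2, near the bottom of that list. Neither promoter was called in another H3K27ac genotype. Tnfaip3, an inhibitor of NF-kB, and Irf1, an interferon regulatory factor gene, had their promoters called in all 8 libraries, with missing regions 0.295 and 0.241 kb from a 2-allele peak. Il1r1 was also called in all 8 at one start, and its missing region was at another start, 30.2 kb from a 2-allele peak.

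Adhesion and cytoskeleton genes had 17 of 41 near a missing region (41.5%) and 1 with one at the promoter. Tjp1, a tight junction scaffold gene, held 3, and the strongest (chr7:65441810-65442324) had fold enrichments of 7.57 and 7.93 at percentiles of 73.5 and 77.0. It lay 24.6 kb from a 2-allele peak and had no H3K4me3 in NICD. The Tjp1 promoter was called in all 8 libraries. Cldn18, a stomach claudin gene, had a promoter flank with 2.20 and 3.07.

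SWI/SNF genes had 6 of 26 near a missing region (23.1%) and 3 with one at the promoter, Smarca4, Dpf2 and Bcl7a. These 3 regions lay 0.303, 0.147 and 0.220 kb from a 2-allele peak, and their promoters were called in both 2-allele libraries. Arid1b, the paralog of Arid1a, held 3 distal missing regions with fold enrichments of 4.11 to 5.04 and 4.13 to 4.66, 35.1 to 86.0 kb from a 2-allele peak. The Arid1b promoter was called in all 8 libraries. Bicra, a subunit gene of a BAF variant, held 3, the strongest at 4.85 and 4.70.

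The remaining lists had 0 or 1 gene each with a promoter member. ErbB and EGF genes had 6 of 20 near a missing region and 1 at the promoter, Btc, an EGF receptor ligand gene whose region lay 0.231 kb from a 2-allele peak. AP-1 and immediate early genes had 8 of 20 near and 1 at the promoter, Fosb, which was nearest to 3. The strongest Fosb region had 6.86 and 7.14 and lay 1.48 kb from the gene. Genes of p53 and apoptosis had 9 of 34 near and 1 at the promoter, Casp9, an initiator caspase gene, 0.386 kb from a 2-allele peak. Gastric cancer suppressors and oncogenes had 9 of 26 near and 0 at the promoter. Of 20 housekeeping genes 1 was near, Tubb5, a tubulin gene, whose promoter had no wild-type or 2-allele peak and fold enrichments of 4.11 and 3.8. Over all 437 matched genes of the lists, 6.64% had a promoter member and 28.8% were near one, against 3.6% and 13.3% of all genes, and the median gene was nearest to 0 missing regions in both. The lists were chosen with earlier results of these data known, so these shares support nothing about a pathway.

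Some genes gathered several distal missing regions. Of the genes within 50 kb, 1766 were nearest to 1 distal missing region, 375 to 2, 94 to 3, 38 to 4, 9 to 5 and 3 to 6. The 3 with 6 were Cdh13, a cadherin gene, Mgat5, a glycosyltransferase gene, and Slc39a11, a zinc transporter gene. The 6 in Cdh13 had fold enrichments of 4.00 to 5.57 and 3.88 to 5.45, and 5 of them lay over 147 kb from any 2-allele peak. The Cdh13 promoter had no peak in any of the 11 libraries. The 6 in Mgat5 had 3.68 to 5.75 and 3.37 to 5.00, beside a promoter called in all 6 wild-type, NICD and 2-allele libraries. Long genes offer more room for a nearest region, and gene length was not tested.

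Genes with 5 distal missing regions included Itpr1, Lmo7, Ptpn3, Galntl6, Zmiz1 and Iffo2. In Itpr1, a calcium channel gene of the endoplasmic reticulum, 3 of the 5 lay within 1.5 kb (chr6:108447621-108449073), and the strongest had 3.74 and 5.26. In Lmo7, a gene of cell junctions and the actin cytoskeleton, the strongest had 6.76 and 5.76 and lay 0.009 kb from a 2-allele peak. For Ptpn3, a tyrosine phosphatase gene, the strongest lay 14.3 kb from the gene, had 5.96 and 7.14 and lay 40.6 kb from a 2-allele peak.

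The 5 strongest distal missing regions had 9530068E07Rik, Slc1a2, Lin28a, Adgrb1 and Haao as their nearest genes. The region in Lin28a, an RNA-binding protein gene of early development (chr4:134009931-134010672), had the highest fold enrichment of these in replicate 1, 11.9, with 7.55 in replicate 2. That region lay 9.04 kb from a 2-allele peak. The region in Slc1a2, a glutamate transporter gene (chr2:102745445-102746176), had 8.02 and 9.29 and lay 126.2 kb from a 2-allele peak. Neither gene had an H3K27ac promoter peak in any library. The region assigned to Adgrb1 had 8.62 and 8.39, lay 314.4 kb from that gene and 507.5 kb from a 2-allele peak. The region assigned to 9530068E07Rik had 8.08 and 6.90 and lay 39.9 kb from the gene and 51.6 kb from a 2-allele peak. The one assigned to Haao had 6.39 and 6.0 and lay 141.6 kb from the gene and 7.15 kb from a 2-allele peak. These 3 had no H3K4me3 peak, while those in Lin28a and Slc1a2 had one in NICD. The nearest wild-type peak lay 0.551 kb from the Slc1a2 region and 9.09 to 109.6 kb from the others.

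Promoter calls of the genes near distal missing regions were read in the same libraries. Of the 2285 genes nearest to at least 1 distal missing region, 68.3% had a promoter peak in both NICD, 56.8% in both wild-type and 55.6% in both 2-allele libraries. Over all genes the shares were 49.2%, 40.1% and 41.0%. Of the 2285 genes, 50.3% were called in all 6 libraries and 35.4% in neither 2-allele library, against 36.1% and 52.9% of all genes. Of the 144 genes nearest to 3 or more, the shares were 73.6%, 60.4% and 59.7%.

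Among miRNA genes, 13 of 1005 hairpins in the RefSeq table lay within 1 kb of a missing region. Mir210, known as a miRNA of the hypoxia response and singled out after the list was seen, lay 591 bp from one. Its mature products are shown with the seed (bases 2 to 8) in capitals.
mmu-miR-210-3p, chr7:141221407-141221428, minus strand: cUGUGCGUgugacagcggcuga
mmu-miR-210-5p, chr7:141221445-141221466, minus strand: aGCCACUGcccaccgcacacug

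Markers of the cell types a gland pellet could hold were read in every H3K27ac library. Parietal markers had promoter peaks for 5 and 3 of 8 genes in wild type, 1 and 1 in NICD, 1 and 0 in 1-allele and 1 and 1 in 2-allele glands. Atp4b itself had a promoter peak in each wild-type library and in 1-allele replicate 1, and in no other H3K27ac library. Pit markers were called at 4 and 5 of 6 in wild type, 5 and 3 in NICD, 2 and 1 in 1-allele and 3 and 1 in 2-allele glands. Neck and metaplasia markers were called at 4 and 2 of 8, 7 and 4, 0 and 1, and 4 and 4 in the same order. Chief markers were called at 2 and 2 of 5, 3 and 3, 0 and 1, and 1 and 1. Over all 21631 genes, promoters called numbered 9793 and 9329 in wild type, 11883 and 10704 in NICD, 3773 and 5937 in 1-allele and 9712 and 9350 in 2-allele glands. Epithelial markers of the stomach were thus present, in numbers that differed between libraries. Parietal calls were fewer in NICD than in wild type, whereas calls over all genes were more numerous in NICD. The part of these markers in the missing regions was not tested.

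Leukocyte markers were called at 0 and 0 of 8 in wild type, 1 and 2 in NICD, 0 and 0 in 1-allele and 2 and 0 in 2-allele glands. Fibroblast and muscle markers were called at 1 and 0 of 10, 3 and 1, 0 and 0, and 0 and 0. Endothelial, endocrine and squamous markers were called at 0 in each H3K27ac library. Of the marker genes, Bhlha15, Foxq1 and Acta2 had a missing region at the promoter, and Hrh2, Cd44, Gkn1, Ptprc, Itgam and Pecam1 were nearest to one without. The Acta2 region, at the smooth muscle actin gene (chr19:34254202-34254958), had fold enrichments of 5.91 and 4.55 and lay 15.3 kb from a 2-allele peak. A wild-type peak lay 0.345 kb from that region, and the Acta2 promoter was called in wild-type replicate 1. Fibroblast and muscle calls were thus most numerous in NICD replicate 1, at 3 of 10, and their part in the missing regions was not tested.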

How the data were processed

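The 11 ChIP-seq libraries of mouse stomach glands were grouped by mark and by the genotype in the labels. Per the submitters' processing notes, Bowtie2, MACS2 and the GRCm38 (mm10) build were used. For 9 lists the caller was MACS 2.0.10.20131216, per the file headers. It ran on single libraries with no control and 1 tag per position. The q-value threshold was 0.05, the local background 10 kb and the effective genome size 2.7 Gb, a human value, per the file headers. Each of these deposited lists gives each peak a pileup signal, a fold enrichment and the −log10 of its p-value and q-value. These are the authors' scores and were used only to describe, rank or filter peaks within a list. The authors' 2 lists of the 2-allele libraries give positions and no other measurement, and their file order served for the equal-length setting alone. Their caller and settings are not given in the sources. Positions were read as 1-based.

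Peaks were merged and overlaps counted with Python 3.11.15, numpy 2.4.6 and pandas 2.3.3, and the code was tested on simulated data. Exact binomial (Clopper-Pearson) intervals at 95%, used to judge the alternatives, came from scipy 1.17.1 and cover counting error only. Gene starts came from the RefSeq promoter table (GRCm38.p6), and genes with no entry kept both ends. Distances to genes run to the nearest protein-coding gene body, and overlapping genes went to the shortest. Named genes were the 12 with the strongest promoter member, the 10 nearest to the most distal members, the genes nearest to the 5 strongest distal members, genes of the lists with a promoter member or at least 3 members within 50 kb, and Arid1a, Notch1, Hes1 and Atp4b. A few genes that the rule gave are not reported here. The members and lists were chosen with earlier results of these data known. Alternatives changed the overlap, the threshold, the list length, the promoter window, the gene starts and the libraries.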

Additional observations from a re-analysis of the deposited data

How the results depend on the processing

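The count of 4259 missing regions moved most with equal list lengths and without NICD replicate 2. It was 2324 with a −log10 q of at least 5, beside 1195 kept regions, and 375 with equal list lengths, beside 564 kept regions. With a library left out it was 4757 to 19520, the last without NICD replicate 2. The stricter q was applied only to lists with scores, so the 2-allele lists stayed whole. The 2324 were chosen anew from the filtered lists, and 1648 of the 4259 missing regions kept both NICD calls under it. The distal share was 77.8% with the stricter q, 78.1% with equal lengths, 78.8% with a 2.5 kb promoter window, 88.1% when a wild-type or 2-allele peak within 1 kb counted as a call, and 80.0% to 86.2% with a library left out. The 1-allele share was 0.344% with the stricter q and 3.07% with equal lengths, and 0.328% to 1.19% with a library left out. The NICD H3K4me3 share was 49.0% when an overlap had to cover 0.5 of the shorter interval, 64.8% with equal lengths, 49.1% with the 1 kb distance, 19.4% with the NICD H3K4me3 list at the wild-type length, and 36.4% to 53.9% with a library left out. Genes with a promoter member numbered 87 with equal lengths, 382 with the 1 kb distance, and 945 to 2560 with a library left out, the last without NICD replicate 2. The 1-allele difference between missing and kept regions was negative in each alternative run, from −8.71 to −1.81 points with a library left out. The larger overlap changed the H3K4me3 share and no other value, because a merged region encloses its own H3K27ac peaks. The 1 kb distance and the reduced H3K4me3 list were chosen after seeing the data. The cause of these changes was not tested beyond what each setting removes. No paired analysis was possible because the replicate numbers name libraries and the member counts come from no test. NICD replicate 2 was the shallowest library with a header, at 7955591 tags, and listed 25443 peaks. The depth of the 2-allele libraries is unknown, and the part of depth in the calls was not tested.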
